A study of Mus musculus with 23 samples.

Results

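The elements described here are stretches of the mouse genome listed as H3K27ac enhancers in the retrosplenial cortex (RSC) and the lateral entorhinal cortex (LEC), and in neither the anterior cingulate cortex (ACC) nor the medial entorhinal cortex (MEC). The H3K27ac enhancer lists of the 4 subregions were joined into elements at any overlap of 1 bp or more, and an element was kept when RSC and LEC contributed a region to it and ACC and MEC did not. This left 1479 of 42115 elements, 3.51% (95% Wilson interval 3.34 to 3.69). The elements were chosen by their H3K27ac in the 4 enhancer lists, so their number and their lack of ACC and MEC enhancer regions are a description and no finding.

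The study profiled H3K27ac and H3K4me2 by chromatin immunoprecipitation and sequencing in the cortex of C57BL6J mice at postnatal day 56, to ask how active enhancers differ among neighbouring cortical subregions. The subregions were dissected from unstained sections of 500 µm by their architecture, so each sample is a mixture of all cell types of that piece of cortex. Each subregion and mark had 2 libraries, except MEC H3K4me2 with 1, among 23 samples in all that include input chromatin. Each list stands for a whole subregion and mark and gives positions only. No value therefore has a replicate error, the depth behind a list is unknown, and no test over animals could be made.

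H3K27ac is an acetylation of histone H3 carried by nucleosomes beside enhancers and promoters in use, and it is gained and lost with their activity. H3K4me2 is a dimethylation of the same histone tail that marks enhancers and promoters more broadly and can be present before, during or after activity. RSC lies along the posterior midline and serves spatial memory and navigation, ACC lies further forward on the same midline and serves attention and emotion, and LEC carries object and odour information into the hippocampus. MEC, the neighbour of LEC, holds the grid cells of the navigation system. The elements therefore join a midline area with the lateral entorhinal area and pass over the neighbour of each.

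A full list and an enhancer list were given for each subregion and mark. Regions in the full list and not in the enhancer list are called excluded regions here, since no source used here states the rule that removed them. For H3K27ac, the enhancer lists held 24272 regions in RSC, 22973 in LEC, 27909 in ACC and 10951 in MEC. ACC had the longest list. The length of a whole list does not settle why a given element is missing from it, and this was not tested. The MEC list was the shortest, and a shorter list and less acetylation in MEC cannot be told apart. In bulk tissue, fewer cells that carry a mark and less of the mark per cell cannot be told apart either.

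The RSC and LEC elements made up 6.34% of the 23328 elements with RSC, 6.72% of the 21999 with LEC, and 12.2% of the 12122 with both. Of the 15070 elements without ACC they were 9.81%. The other combinations of a pair that leaves out MEC were more numerous, with 4205 elements for RSC and ACC and 4276 for LEC and ACC. Another 5901 elements held RSC, LEC and ACC, and 650 held RSC, LEC and MEC.

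Nearly all of the elements were a simple meeting of a single region from each area. In 1440 of 1479 (97.4%), 1 RSC region overlapped 1 LEC region. A further 18 joined 1 RSC region with 2 LEC regions, 19 joined 2 RSC regions with 1 LEC region, and 2 joined 2 with 2. The median width was 2400 bp, with quartiles of 1725 and 3487.5 bp and a range of 825 to 21300 bp. Elements of RSC and ACC had a median width of 2250 bp and those of LEC and ACC 2275 bp. Elements of a single subregion were narrower, at 1325 bp for RSC and 1550 bp for LEC, and those of RSC, LEC and ACC were wider, at 3275 bp. Merging widens an element with each region that joins, so these widths follow in part from the number of contributors.

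Within the elements the contributing regions were close to ordinary in width. RSC bases had a median of 1850 bp per element, against 2075 bp for all RSC enhancer regions. LEC bases had a median of 2050 bp, against 2200 bp for all LEC enhancer regions. The bases held by both had a median of 1500 bp and a median share of 68.6% of the element, against 72.7% in elements of RSC and ACC and 72.2% in those of LEC and ACC. LEC was the wider contributor in 847 elements (57.3%), RSC in 605 (40.9%), and they were equal in 27. The narrower region lay completely inside the wider in 965 elements (65.2%).

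**Figure D1:**
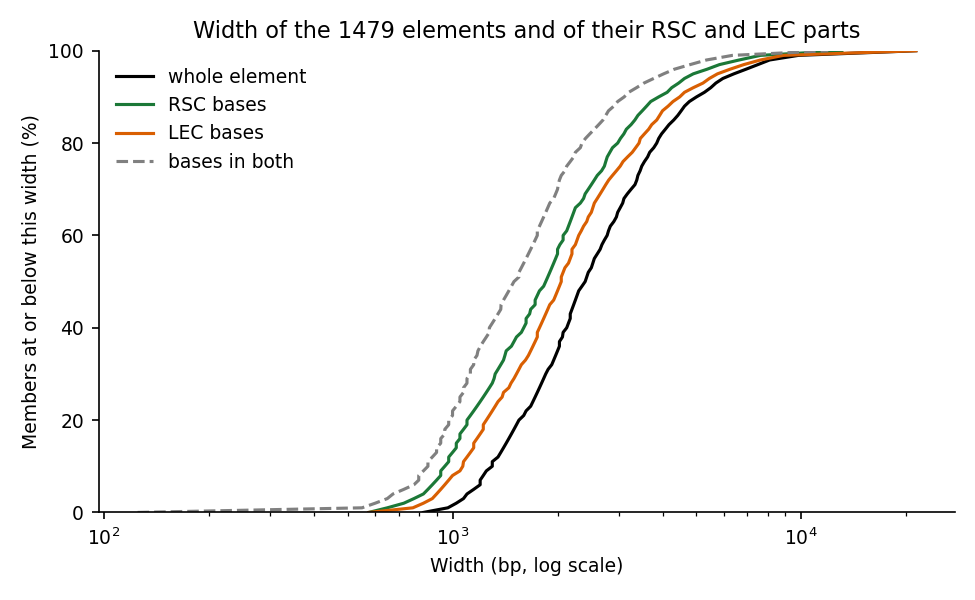
Cumulative percentage of the 1479 elements (vertical axis) at or below a width in bp (horizontal axis, log scale), for the whole element, its RSC bases, its LEC bases and the bases in both. The LEC curve lies to the right of the RSC curve, with medians of 2050 and 1850 bp, and the shared bases have a median of 1500 bp.

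The widest elements were lopsided, with a broad LEC region and narrower RSC regions. The widest, chr10:82561901-82583200 (mm9, as all positions here), was 21300 bp of LEC with an RSC region of 11950 bp inside it. At chr14:26287801-26304600, a LEC region of 16800 bp held 2 RSC regions that covered 8575 bp. At chr2:33638726-33654475, a LEC region of 15750 bp held an RSC region of 2550 bp, and at chr5:114230601-114243650 a LEC region of 13050 bp held 2 RSC regions of 4500 bp in total. The exception was chr5:142887801-142904600, 16800 bp wide, where 2 RSC regions covered 13075 bp and 2 LEC regions 14100 bp. All 5 lay completely under an excluded ACC H3K27ac region of 23750 to 48950 bp. These 5 are the widest by rule and not typical of the set.

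The rule accepts an overlap of 1 bp, so the elements nearest to its edge are given without a test. The overlap of RSC and LEC was under 500 bp in 12 elements. The narrowest, 125 bp, was in an element of 1750 bp on chromosome 18. It was followed by 200 bp at chr9:109964051-109965350 and 275 bp at chr1:161605576-161609350. An ACC enhancer region came within 500 bp of 4 elements, the nearest at 125 bp. Just outside the rule, ACC joined an element of RSC and LEC by 275 bp at chr7:89347651-89352050, with an ACC region of 800 bp. The next were chr10:6808501-6812300 and chr4:120658951-120661775, each joined over 525 bp. The element on chromosome 7 was the single one of the 5901 with an ACC overlap under 500 bp. The narrowest ACC enhancer region was 525 bp, so an overlap below 500 bp needs a partial meeting and is rare by construction. Without signal values, this count cannot show how close elements sat to having or lacking ACC.

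Not all of the elements were free of ACC acetylation in the full list. An ACC full-list H3K27ac region overlapped 415 of 1479 (28.1%, 25.8 to 30.4). Among all elements without an ACC enhancer region the share was 24.6%. The matching value was lower for the other pairs. An excluded LEC region overlapped 176 elements of RSC and ACC (4.19%, 3.62 to 4.83), where 12.0% of all elements without LEC were overlapped. An excluded RSC region overlapped 120 elements of LEC and ACC (2.81%, 2.35 to 3.35), where 11.9% of all elements without RSC were overlapped. The missing subregion was thus present in the full list more often for RSC and LEC elements than for the other pairs, with intervals that do not overlap but cover counting error only. ACC also had the longest full list, with 48266 regions against 41584 in RSC and 42136 in LEC, and the part of list length was not tested. A MEC full-list region overlapped 14 elements (0.947%, 0.565 to 1.58), near the 0.976% of all elements without MEC, and 7 of these were in the ACC full list as well. This left 1057 elements (71.5%) in neither full list.

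The ACC regions over these elements were broad. The 415 elements lay under 390 distinct ACC regions, 0 of them in the ACC enhancer list. The widest ACC region over an element had a median width of 10475 bp, with quartiles of 5475 and 17612.5 bp. All 20357 excluded ACC regions had a median of 3050 bp, although a wide region is more likely to meet an element by its width alone. The ACC region was wider than the element in 406 of 415 cases, at a median of 2.91 times, and covered 285 elements (68.7%) completely. An element was covered over less than 50% of its bases in 1 case. The ACC acetylation was therefore not a sliver at the edge of these elements but a domain over nearly all of them.

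For 225 of the 415 elements (54.2%, 49.4 to 58.9), the ACC region also met an excluded H3K27ac region of RSC or LEC, and there its median width was 14475 bp and 4.03 times the element. For the other 190, which met none, the median was 5362.5 bp and 1.70 times the element. A wide ACC region is more likely to meet an excluded region by its width alone, so this split fixes part of the difference in width. Elements under an ACC full-list region were wider, at a median of 3125 bp, than the 1064 that were not, at 2187.5 bp.

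**Figure D2:**
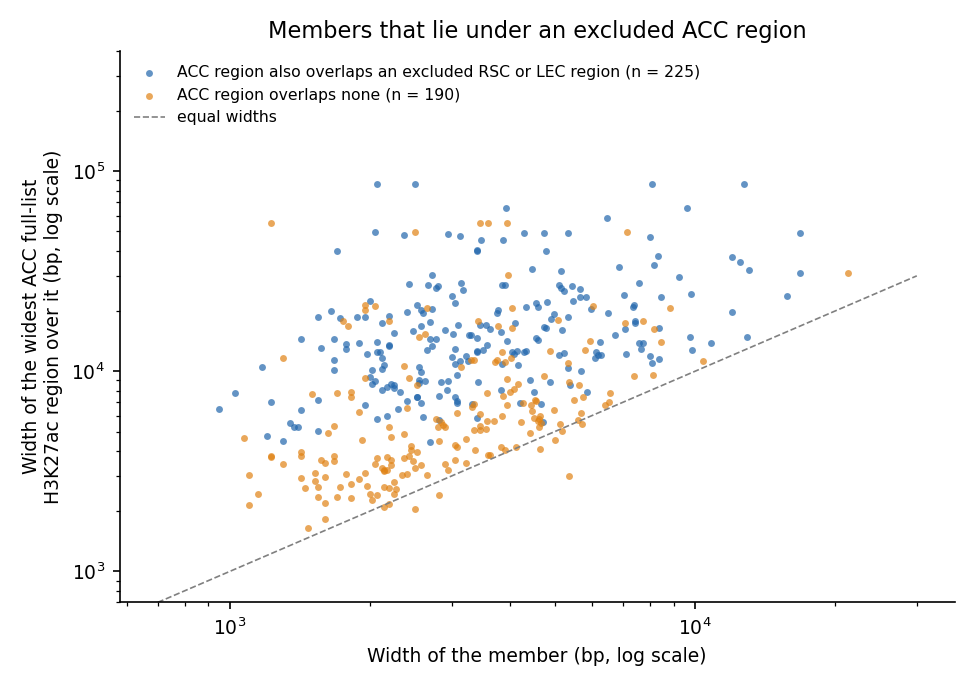
Each point is 1 of the 415 elements under an ACC full-list H3K27ac region, with the element's width (horizontal) against the width of the widest ACC region over it (vertical), both in bp on log scales. Blue points are the 225 whose ACC region also meets an excluded RSC or LEC region, orange points are the 190 whose ACC region meets none, and 406 of all points lie above the dashed line of equal widths.

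H3K4me2 was not used to choose the elements. RSC H3K4me2 enhancer regions overlapped 788 of 1479 (53.3%, 50.7 to 55.8), where they overlapped 44.3% of all elements. LEC H3K4me2 overlapped 770 (52.1%, 49.5 to 54.6), against 43.5% of all elements. ACC H3K4me2 overlapped 776 (52.5%, 49.9 to 55.0), against 51.1% of all elements and 31.6% of all elements without ACC H3K27ac. MEC H3K4me2 overlapped 303 (20.5%, 18.5 to 22.6), against 19.5% of all elements and 13.9% of those without MEC H3K27ac. The RSC, LEC and ACC shares lay within each other's intervals, although ACC had no H3K27ac enhancer region there. RSC and LEC were above their shares of all elements, and ACC was near its own. Unlike this set, all elements include those without RSC or LEC H3K27ac. Elements of RSC, LEC and ACC, a wider class, had higher shares: 63.3% for RSC, 66.0% for LEC and 73.2% for ACC. The ACC H3K4me2 list was also the longest, with 34180 regions against 28675 in RSC and 29125 in LEC. The MEC list, from 1 library, held 15041.

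The 3 shares were also close in the elements without ACC acetylation in any list. Among the 1057 in neither the ACC nor the MEC full H3K27ac list, the H3K4me2 shares were 51.1% for RSC (48.1 to 54.1), 51.2% for LEC (48.2 to 54.2), 51.7% for ACC (48.6 to 54.7) and 21.7% for MEC (19.3 to 24.2). Among the 415 under an excluded ACC H3K27ac region, they were 59.0% for RSC, 54.7% for LEC, 54.7% for ACC and 17.3% for MEC. With the full H3K4me2 lists, the shares for those 415 were 68.2%, 67.5%, 84.1% and 17.6%, highest for ACC. The 415 were chosen by an excluded ACC H3K27ac region, and the full lists include excluded regions. This choice can favour ACC, so the order of these shares is a description. Over all 1479 elements, the full H3K4me2 lists gave 56.9% for RSC, 57.1% for LEC, 62.1% for ACC and 20.9% for MEC, against 47.9%, 47.8%, 56.7% and 20.2% of all elements.

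The other pairs differed between the subregions that contributed H3K27ac and the one that did not. Elements of RSC and ACC carried RSC H3K4me2 in 48.4%, ACC H3K4me2 in 49.2% and LEC H3K4me2 in 27.4% (26.1 to 28.8), where 23.9% of all elements without LEC carried it. Elements of LEC and ACC carried LEC H3K4me2 in 60.4%, ACC H3K4me2 in 66.3% and RSC H3K4me2 in 42.5% (41.0 to 44.0), where 31.4% of all elements without RSC carried it. With elements in the full H3K27ac lists of the missing subregions left out, LEC H3K4me2 was present at 1082 of 4009 elements of RSC and ACC, and RSC H3K4me2 at 1754 of 4152 elements of LEC and ACC (42.2%). At RSC and LEC elements the ACC share lay within the intervals of both contributors and the MEC share was lower. At the other pairs the shares of both missing subregions were lower than those of the contributors. No test of these differences could be made. Elements of a single subregion had lower ACC shares, 21.6% for RSC and 33.5% for LEC. The lists that differ between these comparisons differ in length too, so a difference between pairs and a difference between lists cannot be told apart.

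**Figure D3:**
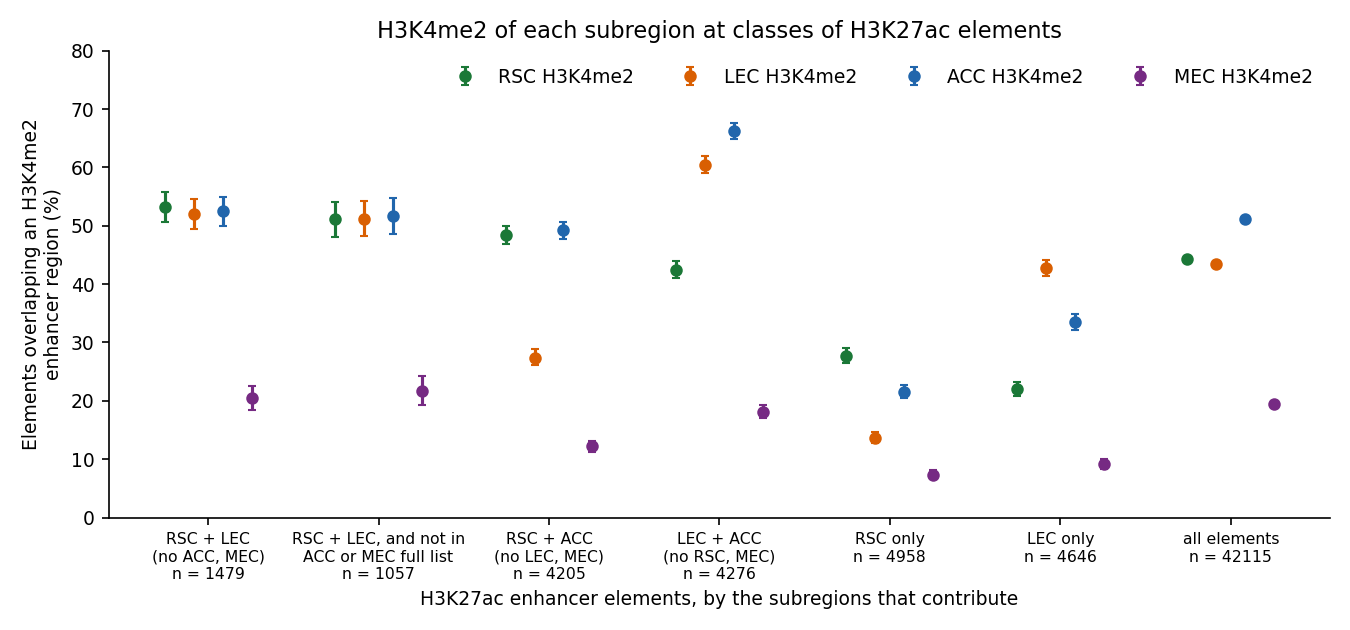
Percentage of elements (vertical axis) that overlap an H3K4me2 enhancer region of RSC, LEC, ACC or MEC (colours), for each class of H3K27ac element with its number of elements (horizontal axis). Points are shares, and the bars (95%, Wilson) show counting error alone. The RSC, LEC and ACC points lie together at 53.3%, 52.1% and 52.5% for the RSC and LEC elements, while LEC falls to 27.4% at RSC and ACC elements.

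The RSC, LEC and ACC H3K4me2 shares were highest at the widest elements, and the MEC share was not. From elements under 1500 bp to those of 1500 to 2500, 2500 to 4000 and at least 4000 bp, the ACC H3K4me2 share was 47.1%, 49.0%, 53.5% and 62.9%. Over all elements without ACC H3K27ac, the same bins gave 23.8%, 31.6%, 36.7% and 54.6%, lower in each bin. The RSC shares were 46.3%, 49.8%, 54.6% and 64.8%, and the LEC shares 48.3%, 46.0%, 53.2% and 65.9%. The MEC shares were 22.8%, 20.8%, 17.6% and 22.3%. In every bin the RSC, LEC and ACC shares of the RSC and LEC elements lay within 4 percentage points of each other. At elements of RSC and ACC, the LEC share in the same bins was 26.8%, 24.5%, 26.9% and 36.4%.

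ACC H3K4me2 accompanied that of RSC and LEC at most elements that carried both, and its share there was below that over all elements. RSC and LEC H3K4me2 met at 572 elements (38.7%), against 30.1% of all elements. ACC H3K4me2 was present at 452 of those 572 (79.0%, 75.5 to 82.2), against 86.3% over all elements. RSC and LEC H3K4me2 without that of ACC was found at 120 elements (8.11%, 6.83 to 9.62), against 4.11% of all elements (3.93 to 4.31). Of the 493 elements with H3K4me2 of neither RSC nor LEC, ACC marked 77 (15.6%, 12.7 to 19.1), against 17.5% over all elements. By exact combination, RSC, LEC and ACC without MEC was the most frequent with any H3K4me2, at 303 elements (20.5%), against 15.4% of all elements. All 4 subregions followed at 149 (10.1%), against 10.6%. H3K4me2 of a single subregion was that of ACC at 69 elements (4.67%, against 6.81% of all elements), of RSC at 69 (4.67%, against 4.67%), of LEC at 63 (4.26%, against 3.88%) and of MEC at 22 (1.49%, against 1.79%).

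Where all 3 were present, ACC also covered the most bases. At the 452 elements with RSC, LEC and ACC H3K4me2, the median covered length was 1675 bp for RSC, 1762.5 bp for LEC and 1900 bp for ACC, or 73.3%, 78.6% and 87.2% of the element. ACC had the most bases of the 3 at 189 elements (41.8%), LEC at 111 and RSC at 66, with the rest tied. Among all elements marked by these 3, ACC had the most at 43.9%, so this ordering was near the level of the whole set. For the 320 in neither the ACC nor the MEC full H3K27ac list the medians were closer, at 1575, 1675 and 1725 bp, and ACC had the most at 97 (30.3%), LEC at 91 and RSC at 53.

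A sizeable minority had H3K27ac without listed H3K4me2. No H3K4me2 enhancer region of any subregion was found at 394 elements (26.6%), against 33.1% of all elements, and no full-list H3K4me2 region at 344 (23.3%), against 30.0%. The widest without any H3K4me2 and outside the ACC and MEC full H3K27ac lists, chosen after its values were seen, was chr14:78039251-78051175, with 11925 bp of LEC and 6025 bp of RSC. The next, also chosen after the fact, was chr6:60390051-60397575, where RSC covered 7500 bp and LEC 7400 bp of 7525 bp. The nearest ACC full-list H3K27ac region was 1.68 kb from the first and 108 kb from the second. In the second, RSC and LEC H3K27ac shared 7375 bp with no listed H3K4me2 in either.

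The RSC and LEC pattern was also looked for in H3K4me2, where its share was above that of all elements. In the full H3K4me2 lists, RSC and LEC regions without ACC or MEC were found at 56 elements (3.79%, 2.93 to 4.88), against 2.33% of all elements. H3K4me2 enhancer regions of both RSC and LEC, with no full-list region of ACC or MEC in either mark, were found at 51 elements (3.45%, 2.63 to 4.51), with a median width of 2225 bp. They were drawn from 440 elements without any full-list region of ACC or MEC in either mark. The matching shares of all elements were not computed for the counts of 51 and 440, so whether they are high or low is unknown. The widest was chr11:85487601-85493075, where LEC H3K27ac covered 5475 bp and RSC H3K27ac 2775 bp, and H3K4me2 covered 1400 bp in RSC and 1200 bp in LEC. The nearest ACC full-list H3K27ac region lay 32.8 kb away. At chr5:105854476-105859125 the proportions were turned round, with 4650 bp of RSC and 1525 bp of LEC H3K27ac, 1975 bp of RSC and 1750 bp of LEC H3K4me2, and an ACC region 1.80 kb away. At chr15:93358476-93362925 RSC H3K27ac covered all 4450 bp and LEC 1275 bp, with 2475 bp of RSC and 1475 bp of LEC H3K4me2. At chr1:55495301-55499675 LEC H3K27ac covered all 4375 bp and RSC 1900 bp. H3K4me2 regions of 2525 bp in RSC and 2375 bp in LEC lay mostly outside this element. They reached into it by 425 bp in RSC and 725 bp in LEC. The RSC H3K4me2 region ended before the RSC H3K27ac region began, so the marks of RSC did not overlap there. At chr4:55052451-55056675 neither mark was shared evenly: RSC H3K27ac covered 1400 bp and LEC 3850 bp, and H3K4me2 covered 1250 bp in RSC and 3600 bp in LEC. In 4 of these 5, 1 area's H3K27ac region filled the element and the other's lay inside it.

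The distance to excluded regions differed with the ACC state of the elements, by a split that is not independent of distance. Within 10 kb of an excluded H3K27ac region of RSC or LEC lay 534 elements (36.1%, 33.7 to 38.6), against 31.4% of all elements, and the median distance was 19.3 kb. Under an ACC full-list region, 280 of 415 lay within 10 kb (67.5%, 62.8 to 71.8), at a median of 4.40 kb. Away from one, 254 of 1064 did (23.9%, 21.4 to 26.5), at a median of 29.7 kb. Elements of RSC and ACC gave 24.9% and those of LEC and ACC 27.7%. The share of the elements under ACC full-list regions was above that of all elements, and the share of the remainder was below it. For 225 of the 415, the ACC region itself met an excluded RSC or LEC region, which favours a short distance. The same split was not made for other classes of elements, so it is not shown to be particular to this set.

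**Figure D4:**
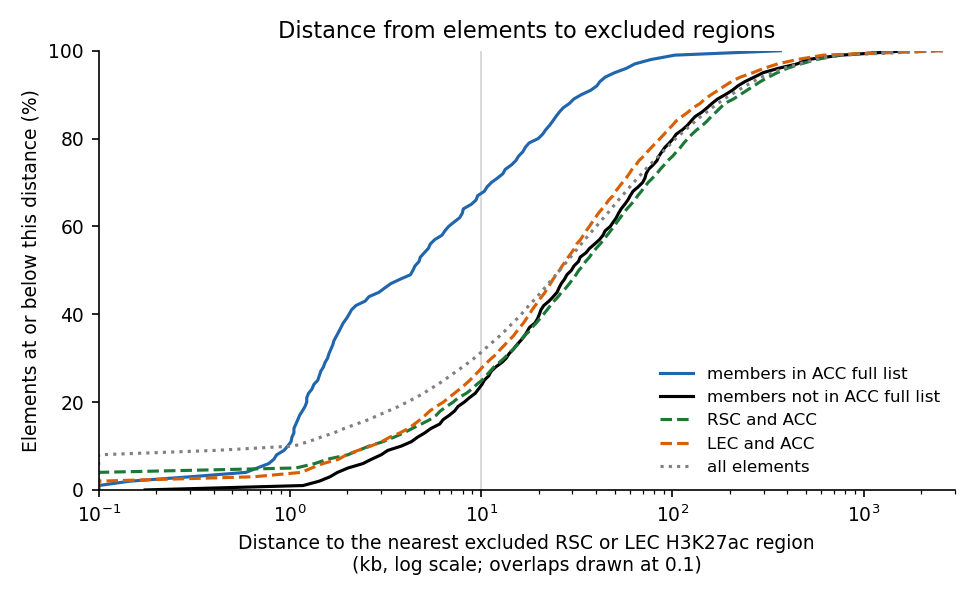
Cumulative percentage of elements (vertical axis) at or below a distance in kb (horizontal axis, log scale, overlaps drawn at 0.1) to the nearest excluded H3K27ac region of RSC or LEC. The vertical line marks 10 kb, where the 415 elements in the ACC full list reach 67.5% and the 1064 others 23.9%, beside 24.9% for RSC and ACC, 27.7% for LEC and ACC and 31.4% for all elements.

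The distances to ACC enhancer regions are a description, since the rule allows no overlap with them. The nearest ACC H3K27ac enhancer region lay at a median of 12.8 kb, within 10 kb for 634 elements (42.9%) and within 1 kb for 18. The nearest MEC enhancer region lay at a median of 47.4 kb, with the shortest list. For comparison, elements of RSC and ACC lay a median of 19.7 kb from a LEC enhancer region, with 32.6% within 10 kb. Elements of LEC and ACC lay a median of 20.2 kb from an RSC one, with 32.1% within 10 kb. ACC had the longest list, and the part of list length was not tested. The share over all elements was not computed. Counting excluded regions as well, ACC came to a median of 3.88 kb.

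All autosomes and the X held elements of the set. Whether the elements gather more or less than others was not tested. The share of a chromosome's elements ran from 2.21% on X (23 of 1040, 1.48 to 3.30) to 4.25% on chromosome 11 (86 of 2022, 3.46 to 5.22), and 0 of 20 on Y fitted the rule. Chromosome 1 held the most, 131. Another element of the set lay within 100 kb, between midpoints, of 377 (25.5%, 23.3 to 27.8). The shares were 50.2% for RSC and ACC and 56.8% for LEC and ACC, classes with 4205 and 4276 elements, and the part of the number of elements in this difference was not tested. Chained at gaps up to 100 kb, the 1479 elements formed 1267 groups, of which 1090 were single elements, 150 held 2, 22 held 3, 3 held 4, 1 held 5 and 1 held 6.

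The group with the most elements lay under nearly unbroken ACC acetylation. It spanned 100 kb at chr6:118702876-118803100 and held 6 elements of 1225 to 9225 bp, 24.0 kb in total. RSC had 8 H3K27ac enhancer regions there (16.1 kb) and LEC 11 (33.0 kb), while ACC and MEC had 0. In the full lists, 3 excluded ACC regions covered 97.3 kb of the span, and all 6 elements lay under them. ACC H3K4me2 was present at all 6, and RSC and LEC H3K4me2 together at 4. ACC H3K4me2 enhancer regions covered 39.8 kb of the span, against 15.2 kb in RSC and 13.2 kb in LEC. Here, then, the absence of ACC from the enhancer list went with more bases under ACC regions than under RSC or LEC regions in both marks.

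The elements of the 2 named groups of 4 also lay under excluded ACC regions. At chr3:97827001-97898500, 4 elements (25.4 kb) lay in a span of 71.5 kb. A single excluded ACC region of 86675 bp covered 71.3 kb of this span, and all 4 elements had ACC H3K4me2. At chr4:154395926-154554550, 4 elements (24.9 kb) lay in a span of 159 kb where 10 ACC full-list regions covered 99.3 kb, and 2 of the 4 had ACC H3K4me2. RSC and LEC also had excluded regions in this span, since the full lists gave 12 and 15 regions there and the enhancer lists 7 and 9.

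The group of 5 had no ACC or MEC full-list H3K27ac region over any element. It spanned 80.1 kb at chr4:86751401-86831500, with 22.1 kb in its elements. RSC had 9 enhancer regions over 51.0 kb, LEC 8 over 20.2 kb, ACC 3 over 5.85 kb and MEC 1 over 3.77 kb, and the full H3K27ac lists added none. RSC H3K4me2 covered 13.1 kb, LEC 2.35 kb, ACC 2.98 kb and MEC 0. The first element, of 7250 bp, was RSC throughout with 950 bp of LEC, and carried RSC H3K4me2 alone. The second, of 6675 bp, was RSC throughout with 3625 bp of LEC and carried H3K4me2 of RSC, LEC and ACC. The next, of 2225 and 4150 bp, carried no H3K4me2, and the last, of 1750 bp, carried that of RSC alone. RSC covered more bases than LEC in each element except the third, where LEC covered 2175 bp and RSC 975 bp. ACC H3K27ac regions in this stretch fell between the elements.

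**Figure D5:**
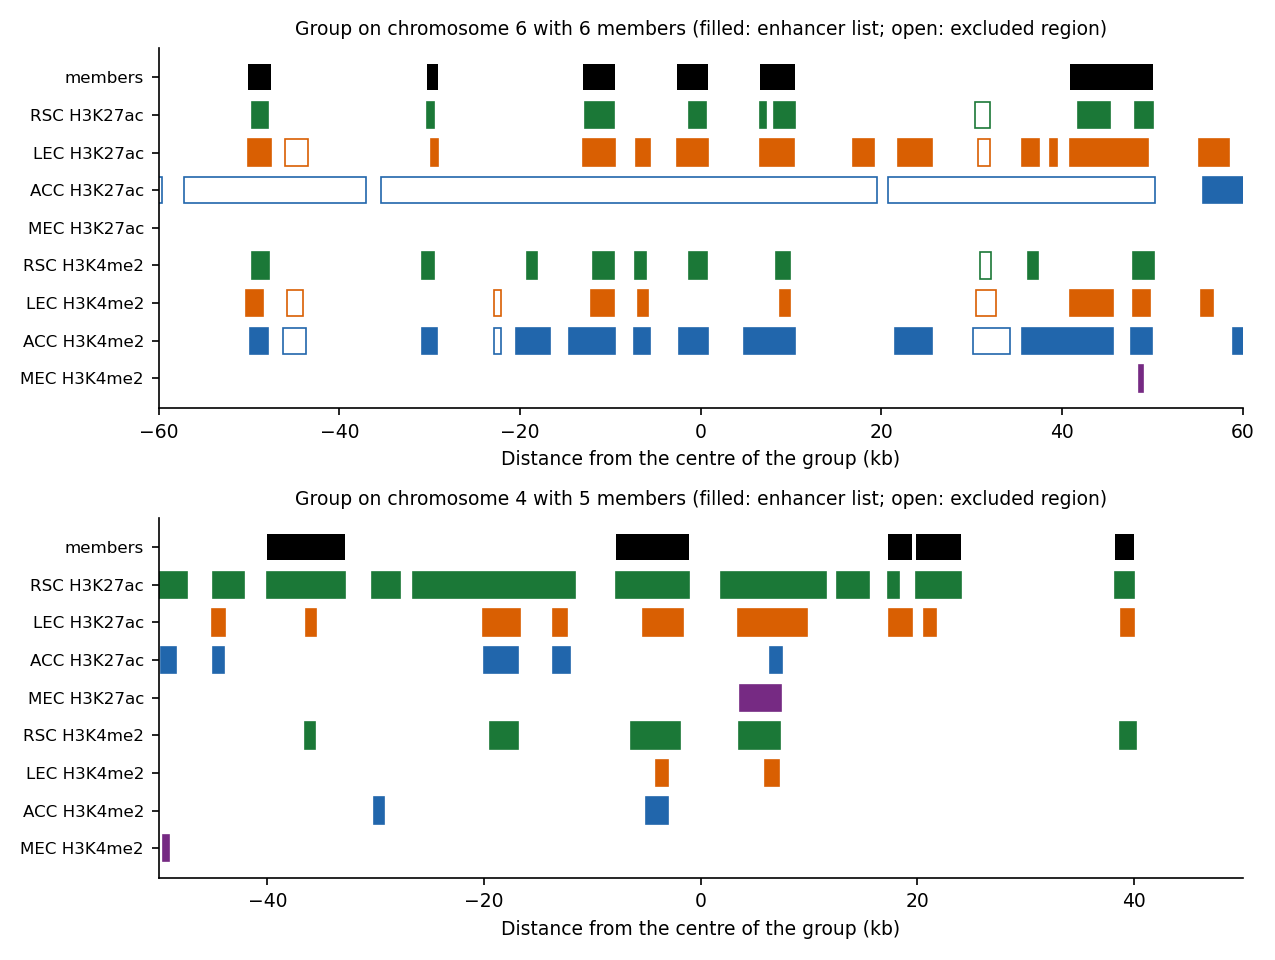
Maps of the groups of 6 elements on chromosome 6 (top) and of 5 elements on chromosome 4 (bottom), with distance from the centre of the group in kb on the horizontal axis and 1 row per list on the vertical axis. Filled boxes are enhancer-list regions and open boxes are excluded regions. In the upper map 3 open ACC H3K27ac boxes cover 97.3 kb of the group, and in the lower map no ACC box overlaps an element in H3K27ac.

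Without the elements in the ACC or MEC full H3K27ac lists, grouping was thinner. The 1057 elements formed 866 single elements, 75 groups of 2, 12 of 3 and the group of 5 on chromosome 4. Those with the most bases among the groups of 3, chosen after their values were seen, were chr13:34407626-34464975 and chr9:28294726-28397450. The first held an element of 8600 bp at chr13:34421876-34430475 with H3K4me2 of all 4 subregions. The second held elements of 4425, 1225 and 4350 bp, of which the first and last carried no H3K4me2 and the middle one that of MEC alone. The one element in this set joined from 2 RSC and 2 LEC regions was chr13:42892826-42903275, of 10450 bp, with 8100 bp of RSC and 8775 bp of LEC. It carried H3K4me2 of RSC over 3875 bp, of LEC over 5275 bp and of ACC over 3950 bp, and the nearest ACC full-list H3K27ac region was 4.03 kb away.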

How the data were processed

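H3K27ac and H3K4me2 region lists of 4 cortical subregions were analysed. Per the submitters' processing notes, tools included Bowtie 1.1.1 and bedtools 2.19.0, on mm9. The lists are labelled as reproducible regions, also that of MEC H3K4me2 with 1 library. No source used here names the peak caller, explains its threshold or says how libraries were combined. The deposited values are other than counts or signal: region positions on a grid of 25 bp and, except in the MEC H3K27ac lists, a column equal to the width. Depth is therefore unknown. Of 17 lists, 16 were used, since 1 repeated another.

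Lists were merged with Python 3.11.15 at a 1 bp overlap, and bedtools 2.31.1 gave the same 42115 elements and 1479 chosen ones. On simulated lists, 302 of 302 planted elements of the set were found. Overlap with a list meant at least 1 bp. Wilson 95% intervals (scipy 1.17.1) cover counting error only. Elements are not replicates and neighbours are not independent, so no p-value is given.

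Named regions were the 5 widest elements, the 5 widest with both marks in RSC and LEC and none in ACC or MEC, the 4 largest groups, the 3 at each side of the rule's edge, the 3 of most regions and the 3 most covered by ACC. The elements and lists were chosen with earlier results of these data known. Positions are 1-based. The gene table at hand is for another build, GRCm38.p6, so no gene is named and the dissected areas were not checked against marker genes.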

Additional observations from a re-analysis of the deposited data

How the results depend on the processing

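Of 75 recomputed shares and median widths, 52 stayed inside the 95% interval of the reported value and 23 did not. The number of elements, 1479, ran from 1057 to 1581 under the planned settings, and all 7 recomputed counts were within 1.5 times of it. Requiring absence from the ACC and MEC full lists gave a median width of 2175 bp, 0% in the ACC and 0% in the MEC full list by construction, 23.7% within 10 kb of an excluded region and 17.7% with another element within 100 kb. Single RSC regions without merging gave 1850 bp and 29.2% within 100 kb. Keeping only regions of at least 1000 bp in every list, H3K4me2 included, gave 2550 bp and 7.79% with MEC H3K4me2. The MEC H3K4me2 enhancer regions had a median width of 750 bp, so this setting removed most of that list. The full H3K4me2 lists gave 56.9% for RSC, 57.1% for LEC and 62.1% for ACC. Other distances gave 24.4% within 5 kb and 70.9% within 50 kb of an excluded region, and 8.92% within 20 kb and 62.7% within 500 kb of another element. Leaving MEC out of the rule, chosen after seeing the data, gave 2135 elements, 2700 bp, 31.4% in the MEC full list, H3K4me2 shares of 59.0% (RSC), 57.4% (LEC), 57.8% (ACC) and 28.8% (MEC), and 35.0% within 100 kb. Beyond what each setting builds in, the cause was not tested. No paired analysis was possible because each list stands for a whole subregion and mark and carries no replicate number. For the same reason no library could be left out. The unknown depth of each list limits every statement of absence.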
